A study of Mus musculus with 6 samples.

Results

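The collagen genes of inguinal white adipose tissue (iWAT) were taken by name, as every gene whose symbol has the form of a numbered collagen type followed by a numbered alpha chain. This gave 44 of the 55573 genes listed, and all 44 were found in the GENCODE M21 annotation of the mouse genome (GRCm38). The tissue came from 3 month old male C57BL/6NTac mice kept on regular chow without treatment. The 3 mutant mice carried the K283Q and K288R changes in thyroid hormone receptor alpha, on both copies of *Thra* and in every tissue, since the knock-in allele was global and made in embryonic stem cells. They were compared with 3 wild type (Wt) mice, and the labels give 1 library of total RNA per mouse. The labels do not say whether the mutant mice came from 1 founder line, and gene-level values cannot show the missense alleles. The comparison addresses which collagen transcripts differ in level in the iWAT of mice with the sumoylation-defective receptor.

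Collagens are trimers of alpha chains wound into a triple helix, and they make up much of the extracellular matrix around adipocytes. The fibrillar types I, III and V form the load-bearing fibrils, type IV forms the network of the basement membrane that wraps each adipocyte and vessel, and type VI forms beaded filaments that link the basement membrane to the fibrils. The multiplexins XV and XVIII sit at the outer face of the basement membrane, and the fibril-associated collagens with interrupted triple helices (FACITs) decorate fibril surfaces. In fat, most collagen is made by fibroblasts and adipocyte progenitors, with adipocytes, endothelial cells and mural cells adding basement membrane chains.

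Each library held between 19607423 and 24228381 reads on genes. Values below are normalized CPM, which scales the reads of a library to a fixed total and is multiplied here by a factor per mouse set by the authors (range 0.962 to 1.109), and 3 reads corresponded to 0.126 to 0.157 normalized CPM. Adipocyte markers summed to 15719 to 22434 in the Wt mice and 12929 to 20308 in the mutant mice, and skeletal muscle markers reached a similar sum of 10483 to 26669 over all 6 mice. Mutant mouse 1 stood apart by its B cell markers, which summed to 4.09 against 483 to 1055 in the other 5 mice, and Wt mouse 1 by its epithelial markers, which summed to 81.4 against 3.88 to 23.1. In bulk tissue, fewer cells of a type and less RNA per cell cannot be told apart. With 3 mice per genotype an exact two-sided permutation test of a single value cannot give a p below 0.1, so p-values come from limma fitted to all genes.

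Of the 44 collagen genes, 38 had enough reads to be tested. 4 of these 38 (10.5%) were higher in mutant mice at a false discovery rate (FDR) of 0.05, namely *Col8a2*, *Col11a1*, *Col12a1* and *Col22a1*, where 5.5% of all 16868 genes tested were higher. *Col8a2* and *Col22a1* had passed the filter on low values through the mutant mice alone, and *Col9a3* and *Col6a4* through the Wt mice alone. None of the 38 was lower by limma, edgeR or DESeq2, where 2.61%, 1.73% and 4.64% of all genes were. By limma 8 of the 38 were higher and 2 lower at an unadjusted p under 0.05. The 2 were *Col27a1* and *Col9a3*, the second of which had to be high in the Wt mice to be tested. The share of all genes at that p was not taken, here or for the lists below. Leaving out 1 mouse at a time gave 1 call without Wt mouse 2 (2.81% of all genes were then higher) or mutant mouse 2 (3.05%), 2 calls without Wt mouse 1 (3.85%) or Wt mouse 3 (3.02%), and 3 calls without mutant mouse 1 (4.48%) or mutant mouse 3 (3.82%). *Col8a2* passed the threshold in all 6 of these fits.

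The collagens that passed the test were minor ones. The chains that supply most collagen transcript in iWAT, those of types I, III, IV, V and VI, differed by less than the test could separate from the spread between mice. Of the 38 genes, 28 had a fold change above 1 (73.7%, against 43.5% of all genes tested), with a median log2 fold change of 0.27 against -0.05 over all genes. All 3 mutant mice lay above all 3 Wt mice for 8 of the 38 (21.1%, against 14.9% of all genes) and below them for 2 (5.26%, against 15.7%). The 28 and the 8 both include *Col8a2* and *Col22a1*, which were tested only because the mutant mice were high. The 2 include *Col9a3*, tested only because the Wt mice were high. Reads on the 44 genes made up 1.32%, 1.12% and 1.14% of the 3 Wt libraries and 1.48%, 1.42% and 1.18% of the 3 mutant libraries, and these ranges overlapped. Over all genes, 928 were higher and 440 lower in mutant mice (67.8% higher). With library size alone as the scaling, 1019 were higher and 265 lower (79.4% higher), and with a correction for the GC content of transcripts 853 and 126 (87.1% higher).

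**Figure D1:**
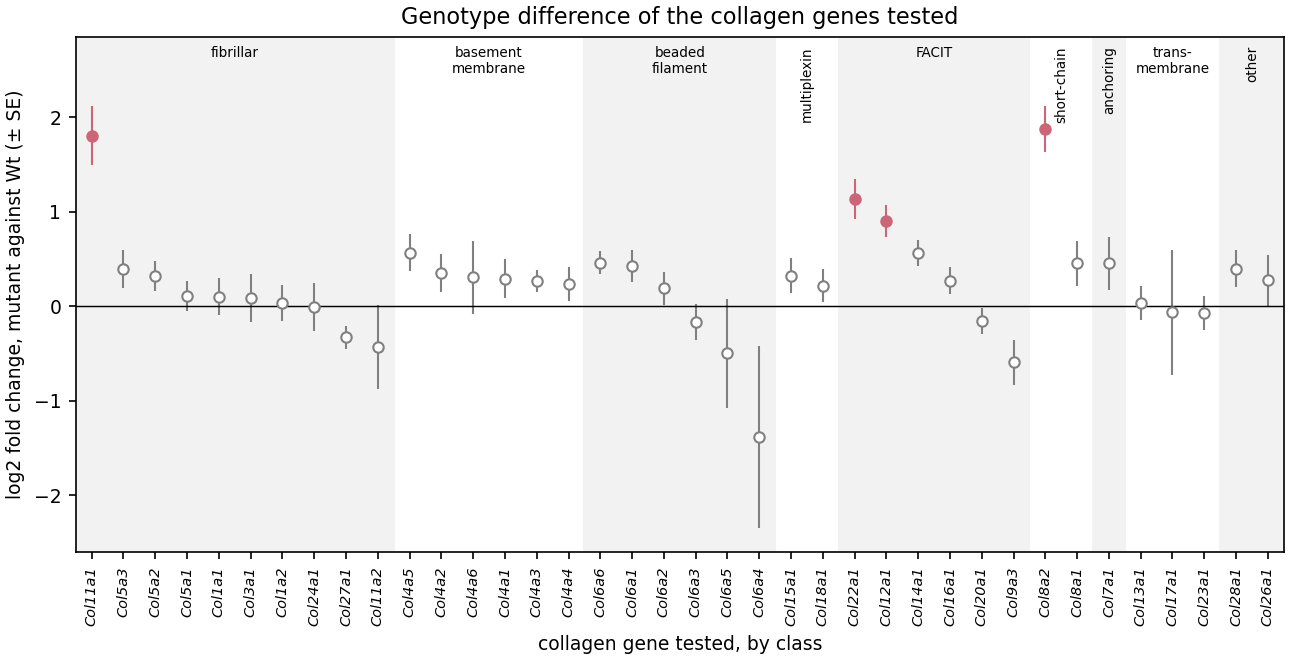
Log2 fold change (mutant over Wt, on the log2 scale of normalized CPM plus 0.5, vertical axis) for the 38 collagen genes tested, grouped by class, with bars showing the standard error from limma. Of the 38 points, 28 lie above 0, and the 4 genes past an FDR of 0.05 (filled) are *Col8a2*, *Col11a1*, *Col12a1* and *Col22a1*.

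The sequences just upstream of *Col8a2* and *Col11a1* are shown because these genes had the largest differences among the collagens called. They are the 250 bases before the RefSeq start of each gene (GRCm38.p6), and *Col12a1* and *Col22a1* have no entry in the table used. Capitals mark matches on either strand to the 6 motifs searched.
*Col8a2*, chr4:126286544-126286793, plus strand: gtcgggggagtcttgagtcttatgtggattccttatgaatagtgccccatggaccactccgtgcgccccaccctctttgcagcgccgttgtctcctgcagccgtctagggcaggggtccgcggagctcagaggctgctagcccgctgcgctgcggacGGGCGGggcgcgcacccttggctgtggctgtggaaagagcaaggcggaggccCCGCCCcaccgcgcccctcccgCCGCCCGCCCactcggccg
*Col11a1*, chr3:114030290-114030539, plus strand: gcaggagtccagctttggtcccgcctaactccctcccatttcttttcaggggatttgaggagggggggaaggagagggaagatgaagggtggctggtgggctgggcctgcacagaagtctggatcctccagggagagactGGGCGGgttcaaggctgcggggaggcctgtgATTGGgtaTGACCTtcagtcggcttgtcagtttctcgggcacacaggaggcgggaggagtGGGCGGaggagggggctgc
The *Col8a2* window held 4 matches to the SP1 box (GGGCGG or CCGCCC), of which the last 2 overlap. The *Col11a1* window held 2 SP1 boxes, 1 CCAAT box (read here as ATTGG) and 1 thyroid hormone receptor half-site (AGGTCA, read here as TGACCT).

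A promoter window was found for 35 of the 44 collagen genes, with 38 windows in all. The SP1 box was present in 22 of these windows (57.9%) against 32.7% of all 32851 windows of that length. The half-site AGGTCA was present in 8 (21.1%, against 14.0%), the CCAAT box in 13 (34.2%, against 33.8%), the TATA box TATAAA in 5 (13.2%, against 12.4%) and the AP1 site TGANTCA in 1 (2.63%, against 6.75%). The palindromic cAMP response element TGACGTCA was found in 0 of the 38, against 1.55% of all windows. These matches are letters in a window and not bound sites.

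*Col8a2* (ENSMUSG00000056174, chr4:126286793-126314330, plus strand) encodes the alpha2 chain of type VIII collagen, a short-chain collagen of hexagonal networks in vessel walls and under the corneal endothelium. It measured 0.796, 0.438 and 0.799 normalized CPM in Wt mice 1 to 3 (19, 9 and 19 reads) and 5.03, 2.83 and 3.70 in mutant mice 1 to 3 (96, 63 and 79 reads). Every mutant mouse was above every Wt mouse. The means were 0.678 ± 0.208 and 3.85 ± 1.11 (SD, n = 3), 5.68-fold higher in mutant mice (log2 fold change 1.87, SE 0.24, limma adjusted p = 0.00751). Its partner *Col8a1*, the alpha1 chain, was more abundant, with 11.2, 8.32 and 6.02 in Wt mice and 13.6, 10.1 and 11.1 in mutant mice. The *Col8a1* values overlapped between genotypes. The other short-chain collagen, *Col10a1* of hypertrophic cartilage, had 0 to 3 reads per mouse and was not tested.

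*Col11a1* (ENSMUSG00000027966, chr3:114030540-114220718, plus strand) encodes a minor fibrillar chain that sits inside cartilage fibrils and also pairs with type V chains in other tissues. It measured 1.13, 0.632 and 0.968 in Wt mice 1 to 3 and 4.93, 6.24 and 2.67 in mutant mice 1 to 3. Every mutant mouse was above every Wt mouse, with the lowest mutant value in mouse 3. The means were 0.910 ± 0.254 and 4.61 ± 1.81 (SD, n = 3), 5.06-fold higher in mutant mice (log2 fold change 1.81, SE 0.31, limma adjusted p = 0.0196). The call was lost without Wt mouse 2 (limma adjusted p = 0.0869), Wt mouse 3 (0.0709) or mutant mouse 2 (0.0699). Its fibrillar relative *Col11a2* measured 2.30, 4.04 and 6.90 in Wt mice and 1.99, 2.29 and 5.01 in mutant mice, which overlapped.

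*Col12a1* (ENSMUSG00000032332, chr9:79598991-79718831, minus strand) encodes the FACIT type XII collagen, which binds the surface of type I fibrils in tendon, fascia and other dense connective tissue. It measured 12.6, 13.7 and 18.6 in Wt mice 1 to 3 and 29.8, 29.8 and 24.7 in mutant mice 1 to 3. Every mutant mouse was above every Wt mouse. The means were 14.99 ± 3.21 and 28.1 ± 2.97 (SD, n = 3), 1.87-fold higher in mutant mice (log2 fold change 0.90, SE 0.17, limma adjusted p = 0.0259). The call was lost without Wt mouse 1 (limma adjusted p = 0.0671), Wt mouse 2 (0.108), mutant mouse 1 (0.0523) or mutant mouse 2 (0.108).

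*Col22a1* (ENSMUSG00000079022, chr15:71795795-72034227, minus strand) encodes the FACIT of tissue junctions, best known at the myotendinous junction. It measured 0.377, 0.584 and 0.631 in Wt mice 1 to 3 (9, 12 and 15 reads) and 1.57, 1.44 and 2.34 in mutant mice 1 to 3 (30, 32 and 50 reads). Every mutant mouse was above every Wt mouse. The means were 0.531 ± 0.135 and 1.78 ± 0.487 (SD, n = 3), 3.36-fold higher in mutant mice (log2 fold change 1.14, SE 0.21, limma adjusted p = 0.0248). The call held in 1 of the 6 fits with a mouse left out, the one without mutant mouse 1, and was lost without the filter on low values (limma adjusted p = 0.0504).

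**Figure D2:**
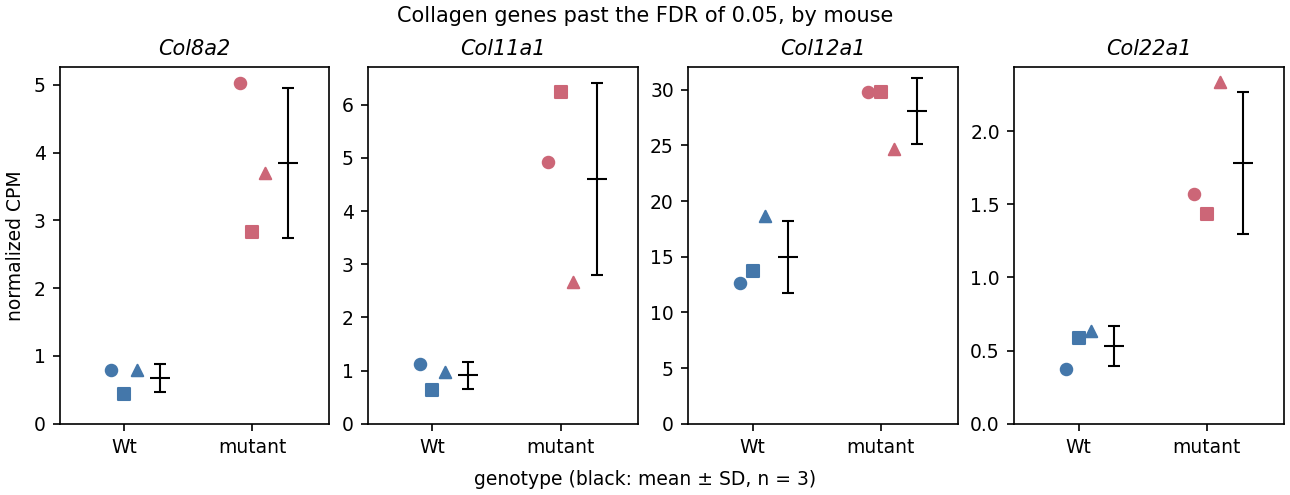
Normalized CPM per mouse (circles, squares and triangles are mice 1, 2 and 3) with the mean and SD (black lines) of the 4 collagen genes past an FDR of 0.05, in 3 Wt and 3 mutant mice. In each panel all 3 mutant mice lie above all 3 Wt mice, with *Col12a1* the most abundant of the 4 at means of 14.99 and 28.1.

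Mesothelial markers also differed between genotypes. Of 8 mesothelial markers, 6 were higher in mutant mice, against 5.5% of all genes, and the sum of the 8 was 8.41 to 34.9 in Wt mice and 42.2 to 84.8 in mutant mice, with *Upk3b*, *Upk1b* and *Wt1* at 0 in at least 1 Wt mouse. 4 of the 6 (*Msln*, *Upk3b*, *Upk1b* and *Wt1*) had passed the filter through the mutant mice alone, and *Lrrn4* and *Gpm6a* through either genotype. The *Gpm6a* call held only without mutant mouse 1 among the 6 fits with a mouse left out, and the other calls held in all 6. *Krt19* was not called and had a log2 fold change of -0.17. In 3 other lists a single marker was called, and their sums overlapped between genotypes. 1 of 8 skeletal muscle markers was higher (*Myh1*, fast myosin heavy chain IIx), at means of 159 in Wt mice and 2259 in mutant mice. This call was lost without Wt mouse 3, mutant mouse 2 or mutant mouse 3. At an unadjusted p under 0.05, 4 of the 8 muscle markers were higher and 0 lower, with a median log2 fold change of 0.85. The share of all genes at that p was not taken, so these counts have no background to be set against. The muscle sums were 10483 to 22434 in Wt mice and 17116 to 26669 in mutant mice. *Myh4* was the largest part of them, at means of 8708 and 7800. 1 of 8 Schwann cell markers was higher (*Ncam1*), with sums of 364 to 478 and 414 to 535, and this call was lost in each of the 6 fits with a mouse left out. 1 of 8 macrophage markers was lower (*C1qa*), with sums of 1237 to 1491 and 1193 to 1342, against 2.61% of all genes, and this call held only without mutant mouse 1 among those 6 fits and was lost with the GC correction (limma adjusted p = 0.15). At an unadjusted p under 0.05, 3 Schwann cell markers were higher and 0 lower, and 1 macrophage marker was higher and 2 lower. The part of these cells in the collagen differences was not tested. For the cells that make most collagen in fat, 0 of 8 fibroblast and progenitor markers were called by limma, with 3 higher at an unadjusted p under 0.05 and sums of 1790 to 2129 in Wt mice and 1840 to 2555 in mutant mice. limma also called 0 of 8 adipocyte markers, 0 of 8 endothelial markers (sums 945 to 1035 and 977 to 1117) and 0 of 8 mural markers (sums 852 to 1058 and 916 to 1150). It called 0 of 6 tested epithelial markers and 0 of 8 B cell markers. At an unadjusted p under 0.05, 2 adipocyte markers were higher and 1 lower, 3 endothelial markers were higher and 1 lower, and 2 mural markers were higher and 1 lower. At that p, 0 epithelial markers were higher and 1 lower, and 0 B cell markers were higher or lower.

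Among the fibrillar collagens, 1 of 10 tested was called, *Col11a1*, and the class median log2 fold change was 0.09. *Col3a1* (ENSMUSG00000026043, chr1:45311538-45349706), whose product forms homotrimers in distensible tissue, had the highest collagen level, with 3490, 2946 and 2730 in Wt mice and 3942, 3168 and 2692 in mutant mice. The means of 3055 ± 392 and 3268 ± 631 (SD, n = 3) did not differ by the test (log2 fold change 0.09, SE 0.25, limma adjusted p = 0.85). *Col1a1* (ENSMUSG00000001506, chr11:94936224-94953042), the alpha1 chain of type I, measured 1261, 997 and 957 in Wt mice and 1358, 1156 and 945 in mutant mice. *Col1a2* (ENSMUSG00000029661, chr6:4504814-4541544), which supplies the single alpha2 chain of that trimer, measured 1482, 1232 and 1192 in Wt mice and 1517, 1408 and 1096 in mutant mice. For both type I genes the genotypes overlapped, with log2 fold changes of 0.10 (SE 0.19) and 0.03 (SE 0.19) and limma adjusted p-values of 0.769 and 0.918.

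Type V collagen nucleates type I fibrils and limits their width. Its 3 chains had log2 fold changes above 0 without passing the test, as had the chains of types I, III and IV. *Col5a1* (ENSMUSG00000026837, chr2:27886425-28039514) measured 436, 354 and 329 in Wt mice and 468, 396 and 342 in mutant mice. *Col5a2* (ENSMUSG00000026042, chr1:45374321-45503282) measured 341, 281 and 258 in Wt mice and 423, 373 and 304 in mutant mice. Both overlapped between genotypes, at log2 fold changes of 0.11 (SE 0.16, limma adjusted p = 0.703) and 0.32 (SE 0.16, limma adjusted p = 0.289). The third chain, *Col5a3*, measured 689, 524 and 482 in Wt mice and 916, 688 and 626 in mutant mice, also with overlap. Its means were 565 ± 109 and 743 ± 153 (SD, n = 3) (log2 fold change 0.39, SE 0.20, limma adjusted p = 0.292). *Col27a1*, a fibrillar chain of cartilage, was one of the 2 tested collagens for which every mutant mouse lay below every Wt mouse, at 18.1, 17.5 and 22.4 against 14.7, 14.9 and 16.0 (limma adjusted p = 0.167). *Col24a1* measured between 1.26 and 2.43 in the 6 mice, and *Col2a1*, the main cartilage collagen, had 1 to 4 reads per mouse and was not tested.

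**Figure D3:**
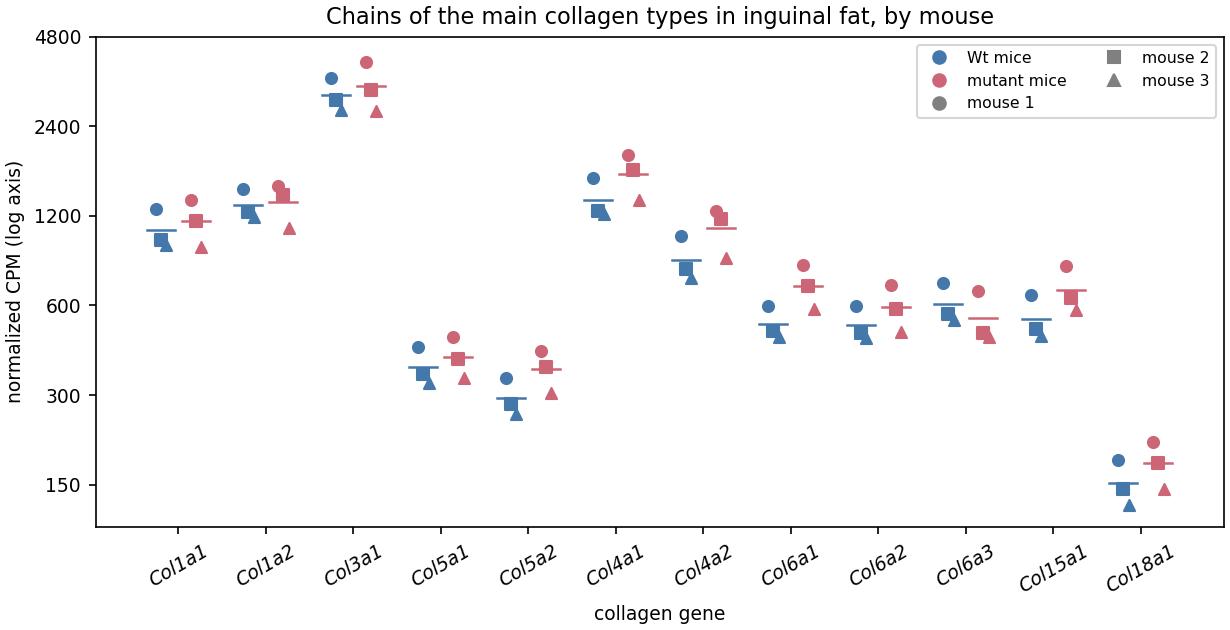
Normalized CPM per mouse (points, logarithmic axis) for the main collagen chains of iWAT in 3 Wt and 3 mutant mice, with horizontal lines at the means. *Col3a1* lies highest at 2692 to 3942, and for each chain the Wt and mutant mice overlap.

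Within each genotype, mouse 1 was the highest for every chain plotted. The fibrillar sum was 6687 ± 917 in Wt mice and 7297 ± 1310 in mutant mice (SD, n = 3). Per kilobase of the principal transcript, which allows levels to be compared between genes, the mean normalized CPM over the 6 mice was 568 for *Col3a1*, 247 for *Col1a2*, 228 for *Col4a1*, 188 for *Col1a1* and 151 for *Col4a2*. *Col6a1* at 149 and *Col6a2* at 140 followed, then *Col15a1* at 118 and *Col5a3* at 107. After *Col6a3* at 63.7, *Col5a2* at 49.8, *Col5a1* at 46.1, *Col18a1* at 34.3 and *Col14a1* at 20.03, the next was *Col16a1* at 4.32.

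The basement membrane collagens gave 0 calls of 6 tested by limma, with 1 higher at an unadjusted p under 0.05 (*Col4a5*), and their median log2 fold change was 0.30. *Col4a1* (ENSMUSG00000031502, chr8:11198423-11312826, minus strand) and *Col4a2* (ENSMUSG00000031503, chr8:11312805-11449287, plus strand) encode the chains of the common type IV network. *Col4a1* measured 1613, 1242 and 1219 in Wt mice and 1916, 1709.8 and 1361 in mutant mice, with means of 1358 ± 221 and 1662 ± 281. *Col4a2* measured 1025, 797 and 743 in Wt mice and 1246, 1168 and 864 in mutant mice, with means of 855 ± 149 and 1093 ± 202 (SD, n = 3). Both overlapped, at log2 fold changes of 0.29 (SE 0.21, limma adjusted p = 0.422) and 0.35 (SE 0.20, limma adjusted p = 0.343). These genes lie head to head, and their annotated exons share 22 bases on opposite strands, shown because reads there could belong to either gene where strand is not used (GRCm38, plus strand, chr8:11312805-11312826).
Shared bases of *Col4a1* and *Col4a2*: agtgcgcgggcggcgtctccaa
The other type IV pairs are also head to head but do not overlap, with 71 bases between *Col4a3* and *Col4a4* and 1308 bases between *Col4a5* and *Col4a6* on the X chromosome.

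The minor type IV chains, known from kidney, smooth muscle and epithelial basement membranes, were far less abundant. *Col4a5* measured 23.0, 23.5 and 14.9 in Wt mice and 33.3, 31.5 and 25.7 in mutant mice, and every mutant mouse was above every Wt mouse, at a limma adjusted p of 0.145. *Col4a3* also did not overlap, at 6.79, 6.71 and 6.02 against 8.23, 7.58 and 7.95 (limma adjusted p = 0.227). *Col4a4* measured 9.38 to 13.1 in Wt mice and 11.4 to 16.3 in mutant mice, and *Col4a6* measured 1.43 to 4.99 and 2.81 to 3.41, both with overlap.

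In type VI collagen the chains did not move together. *Col6a1* (ENSMUSG00000001119, chr10:76708792-76726168, minus strand) measured 596, 492 and 468 in Wt mice and 817, 697 and 585 in mutant mice (log2 fold change 0.43, SE 0.17, limma adjusted p = 0.184). *Col6a2* (ENSMUSG00000020241, chr10:76595762-76623630, minus strand) measured 596, 486 and 467 in Wt mice and 703, 585 and 488 in mutant mice (log2 fold change 0.19, SE 0.17, limma adjusted p = 0.52). *Col6a3* (ENSMUSG00000048126, chr1:90765923-90843971, minus strand), whose alpha3 chain carries the endotrophin fragment at its end, measured 716, 561 and 537 in Wt mice and 673, 485 and 470.0 in mutant mice (log2 fold change -0.16, SE 0.19, limma adjusted p = 0.611). Each of these 3 genes overlapped between genotypes. Of the 6 beaded-filament genes tested, limma called 0, with 2 higher (*Col6a1* and *Col6a6*) and 0 lower at an unadjusted p under 0.05.

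For type VI the ratio of chains within a mouse, which does not depend on the scaling between mice, did not overlap between genotypes where the levels of the same chains did. These chains are partners in the same trimer, and the ratios are described here without a test. The ratio of *Col6a1* to *Col6a2* reads was 1.001, 1.011 and 1.002 in Wt mice and 1.163, 1.192 and 1.197 in mutant mice, a log2 difference of 0.24 where the widest range within a genotype was 0.04. The ratio of *Col6a3* to *Col6a1* reads was 1.201, 1.142 and 1.145 in Wt mice and 0.824, 0.696 and 0.804 in mutant mice, a log2 difference of -0.59 with a widest range of 0.24. Neither ratio overlapped between genotypes. The ratio of *Col6a3* to *Col6a2*, added after the values were seen, was 1.202, 1.155 and 1.148 in Wt mice and 0.958, 0.829 and 0.963 in mutant mice, a log2 difference of -0.35, and did not overlap either. This was not particular to type VI. The ratio of *Col5a3* to *Col5a1* of type V, also added after the values were seen, did not overlap either. Its means were 1.51 ± 0.06 in Wt mice and 1.84 ± 0.11 in mutant mice (SD, n = 3). *Col1a1* to *Col1a2* was 0.851, 0.809 and 0.803 in Wt mice and 0.895, 0.821 and 0.862 in mutant mice, with overlap. *Col4a1* to *Col4a2* was 1.57, 1.56 and 1.64 in Wt mice and 1.54, 1.46 and 1.58 in mutant mice, also with overlap. Base composition moved with the fold changes over all genes, from a median log2 fold change of 0.04 in the lowest GC bin to -0.30 in the highest. After a correction for GC, the *Col6a1* to *Col6a2* difference was 0.14, the *Col6a3* to *Col6a1* difference was -0.68 and the *Col6a3* to *Col6a2* difference was -0.53, still without overlap. *Col5a3* to *Col5a1* (0.36) also stayed without overlap, and *Col1a1* to *Col1a2* (0.20) and *Col4a1* to *Col4a2* (-0.14) no longer overlapped. After this correction, non-overlap thus did not set type VI apart from the other types.

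**Figure D4:**
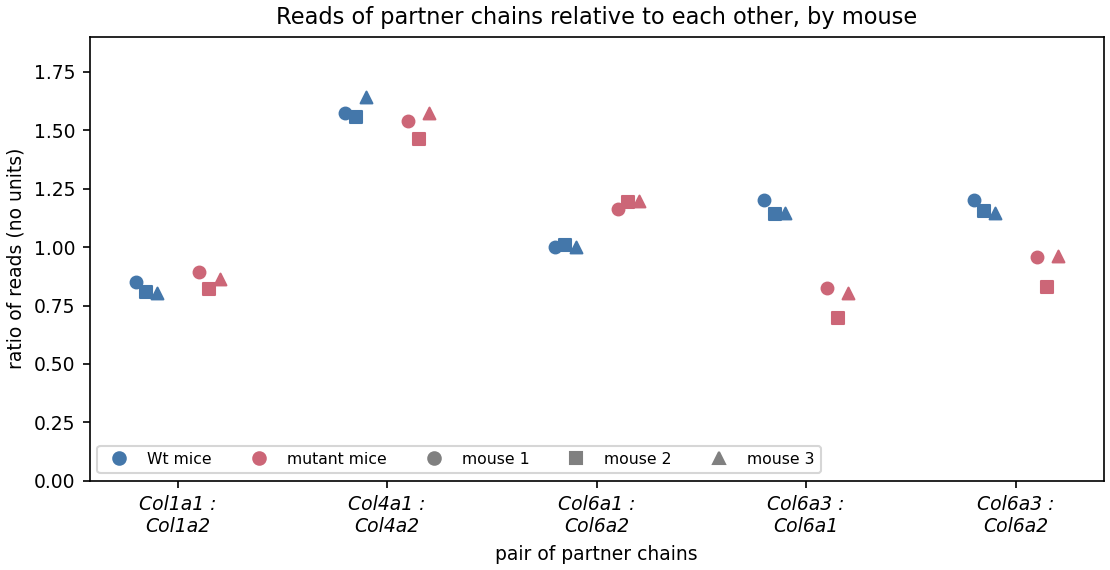
Ratio of reads of partner chains per mouse (circles, squares and triangles are mice 1, 2 and 3) in 3 Wt (blue) and 3 mutant mice (red). *Col6a1* to *Col6a2* lies at 1.001 to 1.011 in Wt mice and 1.163 to 1.197 in mutant mice and *Col6a3* to *Col6a1* at 1.142 to 1.201 and 0.696 to 0.824, *Col6a3* to *Col6a2* falls lower in mutant mice too, and *Col1a1* to *Col1a2* and *Col4a1* to *Col4a2* overlap between genotypes.

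The other type VI chains, *Col6a4*, *Col6a5* and *Col6a6*, can take the place of the alpha3 chain in the trimer. *Col6a6* measured 17.5, 19.3 and 15.1 in Wt mice and 26.1, 24.0 and 21.9 in mutant mice. Every mutant mouse was above every Wt mouse, but the limma adjusted p was 0.0771, and DESeq2 gave 0.0166. *Col6a4* varied more between mice than any of the others in its class, at 4.19, 8.996 and 16.3 in Wt mice and 0.262, 6.42 and 7.49 in mutant mice (log2 fold change -1.38, SE 0.96, limma adjusted p = 0.414), and it too had passed the filter through the Wt mice alone. *Col6a5* measured 4.61 to 13.8 in Wt mice and 2.20 to 8.48 in mutant mice, which overlapped.

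The multiplexins were both detected at high level and neither was called. *Col15a1* (ENSMUSG00000028339, chr4:47208161-47313167), a marker of adipose stromal and capillary basement membrane, measured 649, 500.0 and 472 in Wt mice and 814, 634 and 578 in mutant mice (log2 fold change 0.32, SE 0.19, limma adjusted p = 0.341). *Col18a1* (ENSMUSG00000001435, chr10:77052178-77166548, minus strand), the source of endostatin, measured 182, 145 and 128 in Wt mice and 208, 177 and 144 in mutant mice (log2 fold change 0.22, SE 0.18, limma adjusted p = 0.477). Both overlapped between genotypes.

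The summed level did not overlap between genotypes for the FACITs. Neither did the small sums of the short-chain collagens (6.90 to 12.0 in Wt mice, 12.9 to 18.8 in mutant mice) and of *Col26a1* with *Col28a1* (4.67 to 7.12 and 7.25 to 9.20). The short-chain sum includes *Col8a2*, which had passed the filter through the mutant mice alone. The sums of the other classes overlapped. For single genes, all 3 mutant mice lay above all 3 Wt mice in 14.9% of all genes tested and below them in 15.7%. No such share was taken for sums. The FACIT sum in Wt mice was 133, 129 and 135, and the mutant mice gave 230.4, 178 and 177, for means of 132 ± 2.95 and 195 ± 30.7 (SD, n = 3). *Col14a1*, which binds decorin and type I fibrils, made up most of this sum, at 93.0, 92.5 and 87.7 in Wt mice and 167, 117 and 126 in mutant mice. All 3 mutant mice were above all 3 Wt mice, at a limma adjusted p of 0.0608 (log2 fold change 0.56, SE 0.14). It passed the threshold with TMM scaling (limma adjusted p = 0.042), with library size alone (0.0223) and by DESeq2 (0.00222). *Col16a1* measured 17.7 to 21.9 in Wt mice and 20.7 to 28.3 in mutant mice, and *Col20a1* measured 3.21 to 3.90 and 3.04 to 3.41, both with overlap. *Col9a3*, a chain of the cartilage FACIT type IX, was below every Wt mouse in all 3 mutant mice, at 1.13, 0.875 and 1.43 against 0.629, 0.853 and 0.328 (limma adjusted p = 0.194), having passed the filter through the Wt mice alone.

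The remaining types were at low level. *Col7a1* of the anchoring fibrils under the epidermis measured 4.04 to 8.34 in Wt mice and 7.09 to 10.2 in mutant mice. The transmembrane collagens *Col13a1*, *Col17a1* and *Col23a1* overlapped between genotypes, with *Col17a1* of epithelial hemidesmosomes ranging from 1.36 to 8.71 over the 6 mice. *Col28a1*, which is made by Schwann cells, measured 4.52 to 6.996 in Wt mice and 6.69 to 8.98 in mutant mice, and *Col26a1* had 3 to 13 reads per mouse. Of the 6 collagens not tested, *Col25a1* of neurons had 1, 0 and 1 reads in Wt mice and 6, 5 and 4 in mutant mice. *Col9a1* had 13, 4 and 5 reads in Wt mice and 2, 1 and 1 in mutant mice, and *Col9a2* had 12, 4 and 12 against 2, 4 and 3. *Col19a1* had 0 or 1 read in every mouse. *Col10a1* shares 18 exonic bases with *Nt5dc1*, whose level was 243 times higher, and *Col20a1* shares 79 with the same-strand transcript *BX649560.1* at 2.12 times its level, so their reads are uncertain.

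By limma, the other genes of collagen synthesis and turnover were called at shares near those of all genes, of which 5.5% were higher and 2.61% lower. The limma counts are thus no result about the lists, and the genes called are given singly. Of 23 tested genes for hydroxylation, glycosylation, folding and export of procollagen, 1 was higher and 0 were lower by limma. It was *Tmem38b*, an endoplasmic reticulum potassium channel needed for normal collagen modification in bone, at 32.05, 31.9 and 24.8 in Wt mice and 55.1, 45.1 and 47.9 in mutant mice (log2 fold change 0.73, limma adjusted p = 0.0239), and the call was lost without Wt mouse 2, Wt mouse 3, mutant mouse 2 or mutant mouse 3. Of 18 tested genes for propeptide removal, cross-linking and fibril assembly, 1 was higher and 0 were lower. It was *Thbs1*, a matricellular glycoprotein that can activate latent TGF-beta, at 28.9, 23.9 and 25.7 in Wt mice and 55.6, 48.8 and 45.8 in mutant mice (log2 fold change 0.92, limma adjusted p = 0.00577). The *Thbs1* call held with each of the 6 mice left out. In both genes every mutant mouse was above every Wt mouse. At an unadjusted p under 0.05, 3 genes of the first list were higher and 1 lower, and 3 of the second were higher and 3 lower.

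None of 10 small leucine-rich proteoglycans of the fibril and none of 12 collagen receptors was called by limma or edgeR, and DESeq2 called 2 and 3, where it called 12.6% of all genes and edgeR 6.92%. At an unadjusted p under 0.05, limma gave 3 higher and 0 lower proteoglycans, and 3 higher and 1 lower receptors. The median log2 fold changes were 0.41 and 0.12, against -0.05 over all genes. Of 18 tested proteases, inhibitors and uptake genes, 2 were higher and 2 lower by limma at an unadjusted p under 0.05. Past the FDR, 1 was higher (5.5% of all genes were) and 0 were lower. It was *Timp4*, a metalloproteinase inhibitor abundant in fat, at 105, 82.2 and 70.7 in Wt mice and 183, 194 and 135 in mutant mice (log2 fold change 0.99, limma adjusted p = 0.0303), and the call was lost without Wt mouse 2, Wt mouse 3, mutant mouse 1 or mutant mouse 2.

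Of 23 tested basement membrane partners that are not collagens, 2 were higher and 1 was lower in mutant mice, against 5.5% and 2.61% of all genes. *Fras1* and *Frem2*, which form a complex at epithelial basement membranes in development, had means of 0.976 ± 0.482 and 3.81 ± 0.928 for the first and 0.426 ± 0.167 and 1.27 ± 0.189 for the second (SD, n = 3, limma adjusted p = 0.0214 and 0.0361). *Lamc3*, a laminin gamma chain, was lower, at 18.2, 12.6 and 12.0 in Wt mice and 8.44, 8.12 and 6.97 in mutant mice (log2 fold change -0.80, limma adjusted p = 0.0483). By edgeR 1 of these 23 was called, where it called 6.92% of all genes, and by DESeq2 8, where it called 12.6%. At an unadjusted p under 0.05, limma gave 8 higher and 3 lower. None of *Fras1*, *Frem2* and *Lamc3* was called without Wt mouse 2, mutant mouse 2 or mutant mouse 3. *Fras1* held without Wt mouse 3 or mutant mouse 1, *Frem2* only without mutant mouse 1, and *Lamc3* in none of the 6 fits nor with the GC correction (limma adjusted p = 0.148). *Frem2* had passed the filter through the mutant mice alone. Of 21 TGF-beta pathway genes, 5 were higher and 2 lower by limma at an unadjusted p under 0.05. Past the FDR, 1 was higher and 0 were lower. It was *Ccn1*, a secreted matricellular protein, at 19.8, 19.0 and 20.2 in Wt mice and 42.6, 29.4 and 37.8 in mutant mice (log2 fold change 0.86, limma adjusted p = 0.0175), and the call was lost without Wt mouse 1, Wt mouse 2, Wt mouse 3 or mutant mouse 3.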

How the data were processed

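Total RNA (Qiagen RNeasy Plus) from inguinal fat was sequenced on Illumina libraries, 1 per mouse. The authors deposited a table per genotype, and the values are signal on a normalized scale: CPM multiplied by a factor per mouse. The submitters' processing notes name Bowtie2 2.1.0, RSEM 1.2.15, edgeR and mm10, with no role or order. Whole reads were recovered from the steps of the deposited values (100.0% whole within 0.01 of a read). The factors have a geometric mean of 1.04, so the files do not show whether both tables were normalized together, and TMM, DESeq2 size factors and library size alone were run as alternatives. Strand use in counting is not given in the sources used here.

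limma 3.58.1 with a trend (R 4.3.3) was fitted to log2(value + 0.5), so fold changes of low genes are understated. Genes were kept by filterByExpr of edgeR 4.0.16 (0.458 normalized CPM in 3 mice), and p-values were adjusted by Benjamini-Hochberg over 16868 genes. edgeR's quasi-likelihood test, DESeq2 1.42.0 and limma-voom were run on the recovered reads. Fits were tested on simulated data. Libraries of a genotype differed from each other beyond counting noise (chi-square over its degrees of freedom 19.3 to 64.9). limma p-values weigh the genotype difference against the spread between these mice, with the variance of each gene drawn toward a trend over all genes.

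Values per mouse were printed for collagens past the FDR and for the main chains of fat, and others by range or where the genotypes did not overlap. Members of the pathway lists were named where past the FDR, and the *Fras1* and *Frem2* values are means. Other members with values per mouse (*Col5a3*, *Col8a1*, *Col11a2*, *Col27a1*, *Col4a3*, *Col4a5*, *Col6a4*, *Col6a6*, *Col9a3*, *Col14a1* and the untested genes) were chosen after their values were seen. 24 of 25 procollagen modification genes matched by symbol. The members and lists were chosen with earlier results of these data known.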

Additional observations from a re-analysis of the deposited data

How the results depend on the processing

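Of the results for single collagen genes under all alternatives, 626 kept their direction and side of the FDR, 13 became significant, 13 lost significance and 27 changed sign. The 1368 calls over all genes became 2118 (1336 higher, 782 lower) by DESeq2's Wald test, 598 (345 and 253) with at least 10 reads in every mouse, and 545 to 1043 (488 to 775 higher, 57 to 268 lower) with 1 mouse left out. The 4 collagen calls became 2 with at least 10 reads in every mouse, where *Col8a2* and *Col22a1* were not tested since fewer genes pass that filter, 6 by DESeq2, and 1 to 3 with 1 mouse left out. No collagen was called lower under any of these alternatives. The median log2 fold change of the collagens lay between 0.14 and 0.37.

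*Col24a1* went from -0.0072 to 0.017 with TMM, 0.024 with voom, 0.00088 with DESeq2 size factors and 0.00096 with library size alone, and to between -0.15 and 0.22 with 1 mouse left out. *Col17a1* went from -0.06 to 0.28 by edgeR and DESeq2 and 0.12 with the GC correction, and to between -0.79 and 0.36 with 1 mouse left out. *Col23a1* gave 0.021 with the GC correction. With 1 mouse left out, log2 fold changes ran from -0.22 to 0.058 for *Col23a1*, -0.026 to 0.24 for *Col1a1*, -0.061 to 0.17 for *Col1a2*, -0.057 to 0.22 for *Col3a1*, -0.0091 to 0.22 for *Col5a1*, -0.0072 to 0.75 for *Col4a6*, -0.084 to 0.14 for *Col13a1* and -0.86 to 0.077 for *Col6a5*. The cause was not tested.

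With the mouse number as a block (replicate block), 4063 genes passed (1733 or 10.3% higher, 2330 or 13.8% lower). Of the 38 collagens tested, 13 were then higher and 0 lower. The 13 included the main chains *Col4a2*, *Col5a2*, *Col5a3*, *Col6a1*, *Col15a1* and *Col18a1*, which limma did not call without the block. The labels give the mice only a number. Same-numbered mice correlated at 0.69, 0.06 and 0.56 in their deviations from the group means, and Wt mouse 2 correlated best with mutant mouse 3 (0.33), so the numbers were not taken as pairs.

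The GC correction in 20 bins was chosen after seeing the data. Tested collagens had a median transcript GC of 55.9% against 50.1% over all genes. It gave 853 higher and 126 lower genes, and the same 4 collagens, with limma adjusted p-values of 0.00444 for *Col8a2*, 0.024 for *Col11a1*, 0.033 for *Col12a1* and 0.032 for *Col22a1*.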

Other observations

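The ratio of *Col5a3* to *Col5a1* reads, 2 chains of type V, was added after the values were seen and is given without a test. It was 1.58, 1.48 and 1.47 in Wt mice and 1.96, 1.74 and 1.83 in mutant mice, a log2 difference of 0.29. The genotypes did not overlap.

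The TGF-beta pathway genes summed to 1917 to 1994 normalized CPM in Wt mice and 1701 to 1796 in mutant mice, which did not overlap. The median log2 fold change was -0.10 over the 21 tested against -0.05 over all genes. At an unadjusted p under 0.05, 5 of the 21 were higher and 2 lower. The largest falls in mean level were in *Ltbp3* (347 to 247) and *Ltbp4* (218 to 171), neither called by limma. With the GC correction their log2 fold changes went from -0.49 to -0.23 and from -0.36 to -0.10. For single genes, all 3 mutant mice lay below all 3 Wt mice in 15.7% of all genes tested.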
